A study of Mus musculus with 6 samples.

Results

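The blood-retina barrier genes described here are 9 of the 55487 genes listed for sorted retinal vascular endothelial cells (VECs). They were taken by name: the tight junction genes Cldn5, Ocln and Tjp1, the transporter genes Slc2a1, Slc16a1, Mfsd2a and Abcb1a, and the vesicle and diaphragm genes Cav1 and Plvap. VECs came from P7.5 retinas of 3 Bmal1 FL/FL;tdTomato FL/+;Pdgf-icreER animals (Bmal1;CKO) and 3 tdTomato FL/+;Pdgf-icreER animals (control). Both groups carried the Cre transgene and the tdTomato reporter, both received tamoxifen between P0.5 and P2.5, and retinas were taken at ZT6, in the middle of the light phase. Cre and GFP both come from the Pdgf-icreER transgene, and the sort kept cells positive for GFP and tdTomato. Each library was amplified from picograms to about a nanogram of total RNA. The sources used here do not say whether a library pools animals, so p-values measure the spread between these libraries, which may be partly technical.

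The vessels of the inner retina are sealed by tight junctions, in which claudin-5 and occludin span the membrane and ZO-1, the product of Tjp1, anchors them to actin. Glucose, lactate and lipids then have to pass through carriers, drugs are pumped back to the blood by P-glycoprotein, and transport in caveolae is held low by Mfsd2a. Plvap forms the diaphragms of fenestrae and caveolae and is known as a mark of leaky or immature vessels. During postnatal growth, Norrin and Wnt signalling through Fzd4 and beta-catenin is known to set up this programme.

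In Bmal1;CKO libraries 8 of the 9 genes had a mean log2 level below that of the controls, as did 43.4% of all genes tested and 14 of 14 endothelial markers (median log2 fold change -0.50), and Plvap had a mean above it, but none of the 9 passed the test across all genes (adjusted p 0.883 to 0.887). Slc16a1, the monocarboxylate carrier MCT1, was the one gene whose libraries did not overlap, at a ratio of means of 0.339, and 1 of 9 is near the 11.2% of all genes tested that did not overlap. Within a library, Plvap was higher relative to Cldn5 in all 3 Bmal1;CKO libraries than in any control, by 1.86-fold. The exact permutation test gave p = 0.1, the smallest possible here, and 6.12% of the other genes tested were likewise higher relative to Cldn5 without overlap.

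Values are normalized counts, that is, gene counts divided by the size factor of the library, and they gave back whole reads for 100% of the values. The 6 libraries held 71145068 to 104017800 reads on genes, with size factors of 0.711 to 1.40. Control libraries carry the numbers 1 to 3 and Bmal1;CKO libraries 4 to 6. These numbers name columns, which were assigned to a genotype and not to single animals. Arntl, which encodes Bmal1, stood at 2706 ± 915 in control and 2314 ± 492 in Bmal1;CKO (SD, n = 3 each). A count over the whole gene does not separate a deleted exon from the rest, so Arntl does not check the genotype labels. The paper measured Bmal1 separately, by droplet digital PCR in sorted endothelial cells, and reports a significant reduction in the mutant. The 14 endothelial markers summed to 123246 to 211052 in control and 69922 to 157481 in Bmal1;CKO, with 14 of 14 lower in Bmal1;CKO. Microglia, rod and Müller glia markers summed to more than the endothelial markers in all 6 libraries. The 9 microglia markers summed to 1386183 to 4103347 in control and 2013410 to 3985845 in Bmal1;CKO, and the 8 rod markers to 432187 to 470466 and 269733 to 507788. The 8 Müller glia markers summed to 4015363 to 16620299 and 7348887 to 13529407, mostly from Apoe, with Aqp4 at 0 in a library. Their median was 3724, 5157 and 5533 in control, below the endothelial marker median of 8217, 5704 and 6409. In Bmal1;CKO libraries 4 to 6 it was 8942, 7742 and 6533, against 5470, 3744 and 7812 for the endothelial markers. Of the microglia markers 8 of 9 were higher in Bmal1;CKO, and of the 7 Müller glia markers tested 7 were higher. The 8 pericyte markers summed to 5580, 12160 and 56445 in control libraries 1 to 3 and to 7501 to 10039 in Bmal1;CKO, with 5 of 8 lower in Bmal1;CKO and Abcc9 at 0 in a library. The 7 erythroid markers summed to 1259, 5659 and 19045 in control and to 1438 to 9939 in Bmal1;CKO, with 4 of 5 tested lower. Both lists were highest in control library 3. The 6 astrocyte markers summed to 10392 to 17642 and 11431 to 15613, with Pax2 at 0 in a library. The part of these cells in the values below was not tested. Levels set against endothelial markers, as below, adjust for the endothelial RNA of a library and do not test that part. In bulk RNA, fewer endothelial cells and less RNA per endothelial cell cannot be told apart.

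The promoters of 8 of the 9 genes were found in RefSeq (GRCm38.p6), in 10 windows that run from 250 bases before a start to 50 bases after it. Both strands were searched for the E-box CACGTG, the letters that Bmal1 and Clock bind, and for CTTTGA, a core of the TCF sites used by Wnt signalling. The E-box was found in the window of Slc16a1, 200 bases before the start, and in none of the other 9, against 7.15% of all 32851 promoter windows. The TCF core was found in the windows of Mfsd2a, 115 bases before the start, and of Abcb1a, 153 and 58 bases before it, against 16.0% of all windows. The 250 bases upstream are shown for Slc16a1 and Mfsd2a, which hold a match, and for Cldn5, the most abundant of the genes, which holds none; capitals mark the match.
Slc16a1 (chr3:104638414-104638663, + strand): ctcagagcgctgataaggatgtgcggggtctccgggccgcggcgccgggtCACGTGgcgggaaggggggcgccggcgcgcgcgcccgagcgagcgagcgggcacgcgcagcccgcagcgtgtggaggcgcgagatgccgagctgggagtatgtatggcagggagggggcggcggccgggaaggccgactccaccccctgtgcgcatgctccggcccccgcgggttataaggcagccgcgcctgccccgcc
Mfsd2a (chr4:122961189-122961438, - strand): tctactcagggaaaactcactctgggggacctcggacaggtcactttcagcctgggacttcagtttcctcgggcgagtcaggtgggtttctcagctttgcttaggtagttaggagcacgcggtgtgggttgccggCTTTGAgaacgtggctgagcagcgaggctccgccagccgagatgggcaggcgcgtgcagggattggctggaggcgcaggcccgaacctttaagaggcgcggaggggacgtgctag
Cldn5 (chr16:18776597-18776846, + strand): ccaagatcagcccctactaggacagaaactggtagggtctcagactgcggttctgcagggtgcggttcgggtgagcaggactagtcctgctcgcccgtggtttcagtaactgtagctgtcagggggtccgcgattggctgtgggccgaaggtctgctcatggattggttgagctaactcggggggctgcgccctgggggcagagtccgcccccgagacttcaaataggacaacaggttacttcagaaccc
The RefSeq start used for Abcb1a lies 93.0 kb before the GENCODE gene start printed for it below, and that used for Tjp1 lies 157 kb inside the printed gene, so these windows belong to other starts. A match of letters is not a bound site, and no binding was measured in these libraries.

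The 9 genes spanned a wide range of levels. Per kb of exon, Cldn5 averaged 81069 normalized counts over the 6 libraries, Plvap 14796, Slc2a1 7456, Mfsd2a 2197, Cav1 1274, Slc16a1 334, Ocln 175, Tjp1 150 and Abcb1a 127. From Cldn5 down to Ocln, each gene was above the next in 6 of 6 libraries. Ocln and Tjp1, and Tjp1 and Abcb1a, kept that order in 4 of 6, so these 3 did not differ in level beyond their spread. Cldn5 alone took 56.4% to 69.6% of the reads on the 9 genes, which together held 0.115% to 0.269% of all reads. No library held fewer than 10 reads for any of the 9, with a range from 235 for Ocln in library 4 to 163439 for Cldn5 in library 1.

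**Figure D1:**
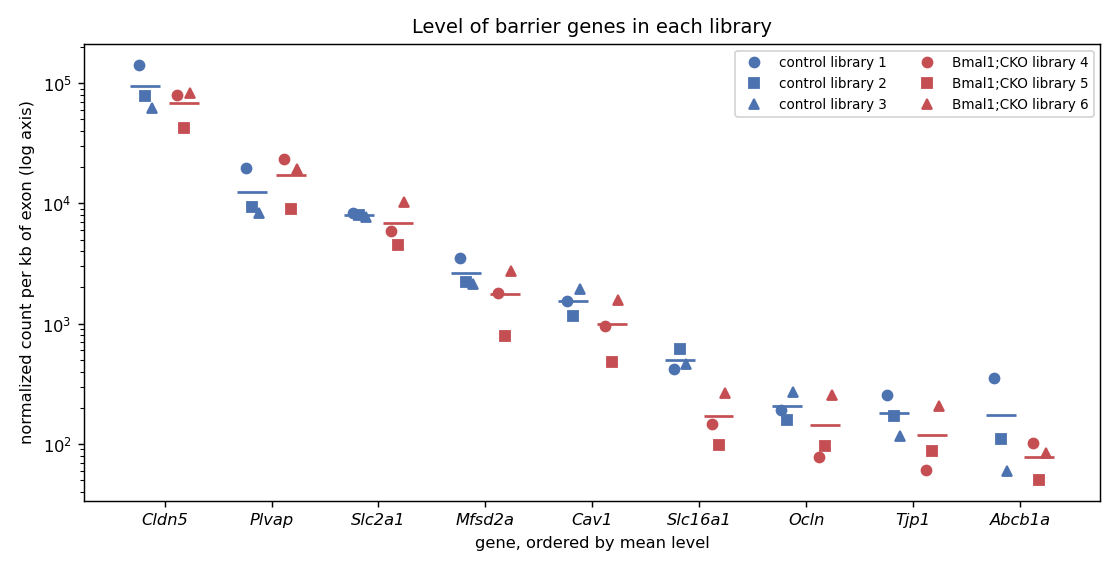
Normalized counts per kb of exon (log axis) for the 9 barrier genes, ordered by mean level, with 1 point for each library and a bar for the mean of each group. Cldn5 averages 81069 per kb and Abcb1a 127, and Slc16a1 is the gene whose 3 Bmal1;CKO points all lie below the 3 control points.

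The tight junction genes stood lower on average in Bmal1;CKO, with overlapping libraries. Cldn5 (chr16:18776847-18778262, + strand), which encodes the claudin that seals endothelial junctions, was at 201094, 110074 and 87590 normalized counts in control libraries 1 to 3 and at 112962, 60099 and 116942 in Bmal1;CKO libraries 4 to 6. Library 1 was far above the rest and library 5 the lowest, and the others interleaved. Its log2 fold change was -0.43 (SE 0.44, 95% interval -1.45 to 0.59, limma-trend p 0.358, adjusted p 0.886).

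Ocln (chr13:100496507-100552718, - strand) encodes occludin, a membrane-spanning junction protein. Its values were 806, 666 and 1146 in control and 331, 404 and 1076 in Bmal1;CKO. Libraries 4 and 5 lay below every control, while library 6 lay among them. This gave a log2 fold change of -0.70 (SE 0.55, 95% interval -1.98 to 0.58, p 0.242).

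Tjp1 (chr7:65296165-65527781, - strand), the scaffold gene, was at 1977, 1336 and 917 in control and at 477, 682 and 1618 in Bmal1;CKO. It showed the same layout as Ocln, with libraries 4 and 5 below the controls and library 6 between control libraries 1 and 2. Between the groups the log2 fold change was -0.73 (SE 0.54, 95% interval -1.99 to 0.52, p 0.213).

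Among the transporters, the monocarboxylate carrier differed most. Slc16a1 (chr3:104638668-104658462, + strand), which moves lactate, pyruvate and ketone bodies, was at 1854, 2741 and 2032 in control and at 648, 433 and 1166 in Bmal1;CKO. The highest Bmal1;CKO library was below the lowest control, so the groups did not overlap. The means were 2209 ± 469 and 749 ± 377 (SD, n = 3 each). On the log2 scale the change was -1.66 (SE 0.44, 95% interval -2.67 to -0.64), with an unadjusted p of 0.00568, the 130th smallest of 20459, and an adjusted p of 0.883. The exact permutation test, two-sided, gave p = 0.1, the smallest that 3 libraries against 3 allow. The unadjusted p stayed under 0.05 in each of 14 alternative fits, and leaving out a library moved the log2 fold change between -2.04 and -1.32. The lowest adjusted p of these fits was 0.160, with DESeq2, and the highest rounded to 1.00, with edgeR.

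Slc2a1 (chr4:119108711-119137983, + strand) encodes GLUT1, the main glucose carrier of barrier endothelium. Its control values were the tightest of the 9 genes, at 29317, 28131 and 26851 (coefficient of variation 4.39%). The Bmal1;CKO values of 20703, 15934 and 35907 lay on both sides of them. In limma-trend the log2 fold change was -0.30 (SE 0.33, 95% interval -1.07 to 0.46, p 0.388). Its exons overlap the antisense gene Gm12868 over 105 bases, and whether the counting used strand is not given in the sources used here.

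Mfsd2a (chr4:122946850-122961188, - strand) carries lysophosphatidylcholine with omega-3 fatty acids and holds back caveolae. It was at 7918, 4948 and 4802 in control and at 4022, 1779 and 6191 in Bmal1;CKO. Libraries 4 and 5 were below every control, and library 6 lay between control libraries 1 and 2. That is a log2 fold change of -0.70 (SE 0.47, 95% interval -1.79 to 0.40, p 0.179).

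Abcb1a (chr5:8660077-8748575, + strand), which encodes P-glycoprotein, varied most among controls, at 1944, 606 and 328 (coefficient of variation 90.1%). The Bmal1;CKO values of 554, 275 and 460 lay mostly within that range. Its change on the log2 scale was -0.82 (SE 0.70, 95% interval -2.46 to 0.82, p 0.280). Without control library 1 it was -0.11, and without control library 3 it was -1.39. Of the 50-base windows of the longest coding Abcb1a transcript, 18.6% also occur in another gene, most of them in the related gene Abcb1b. How reads from these shared windows were split between the genes is uncertain. Abcb1b itself was at 363 ± 108 in control and 256 ± 21.5 in Bmal1;CKO (log2 fold change -0.46, p 0.417).

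The vesicle gene and the diaphragm gene differed in direction. Cav1 (chr6:17306335-17341452, + strand), which encodes the coat protein of caveolae, was at 5272, 4020 and 6717 in control and at 3280, 1653 and 5387 in Bmal1;CKO. The log2 change came to -0.76 (SE 0.45, 95% interval -1.80 to 0.28, p 0.129). Both Cav1 and Ocln were highest in control library 3, where the pericyte and erythroid marker sums were highest, and without it their log2 fold changes were -0.58 and -0.48. Its neighbour and partner Cav2 was at 593 ± 479 in control and 392 ± 186 in Bmal1;CKO (log2 fold change -0.14, p 0.887).

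Plvap (chr8:71497765-71511752, - strand) was at 38889, 18527 and 16571 in control and at 46279, 17718 and 38414 in Bmal1;CKO. Libraries 4 and 6 were high, and so was control library 1, and the other 3 were close together. Its log2 change was 0.47 (SE 0.47, 95% interval -0.62 to 1.55, p 0.348).

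Read together, 8 of the 9 genes were below 0 on the log2 scale, against 43.4% of the 20459 genes tested. The median log2 fold change was -0.70, against 0.11 over all genes tested. The 9 genes were measured in the same 6 libraries, and 6 of them were lowest in library 5 and 4 of them highest in library 1, so they are not independent counts of a direction. The 95% intervals of the 8 genes other than Slc16a1 include 0 and reach from -2.46 to 1.55. At an adjusted p under 0.05 there were 0 of the 9, against 0% of all genes in limma-trend (1007 genes were at an unadjusted p under 0.05) and 0.327% with DESeq2, also with 0 of the 9. At an unadjusted p under 0.05 there was 1 of the 9, Slc16a1, against 4.92% of all genes in either direction and 1.75% lower. Groups that did not overlap were also found for 1 of the 9, against 11.2% of all genes in either direction and 4.54% lower. Without Bmal1;CKO library 6, 4 of the 9 (Tjp1, Slc16a1, Mfsd2a and Cav1) were lower at an unadjusted p under 0.05, against 1.63% of all genes in that fit, and 6 were lower without overlap, against 7.96%, with 0 at an adjusted p under 0.05. Without control library 3, Abcb1a joined Slc16a1 among those that were lower without overlap, against 14% of all genes. With any library other than 6 left out, 1 of the 9 was at an unadjusted p under 0.05. Library 6 had the highest endothelial marker sum of the Bmal1;CKO libraries, 157481, against 117856 and 69922 in libraries 4 and 5. Set against the endothelial markers, as described below, Cldn5, Slc16a1 and Plvap did not overlap without library 6, and the other genes did. The part of endothelial RNA in these counts was not tested.

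**Figure D2:**
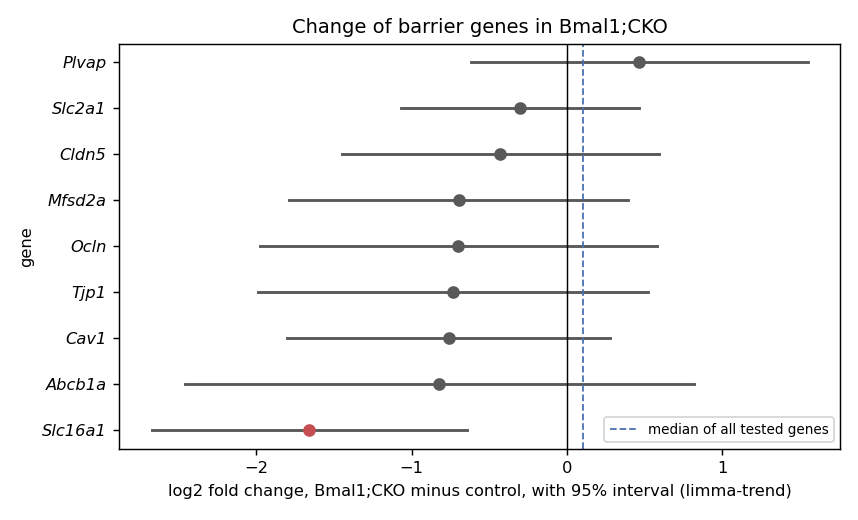
Log2 fold change of each gene, Bmal1;CKO minus control, with its 95% interval from limma-trend over 3 and 3 libraries. The interval of Slc16a1, -2.67 to -0.64, lies below 0, the other 8 include it, and the dashed line is the median of all 20459 genes tested, 0.11.

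The summed endothelial markers differed between libraries, so each gene was also set against the mean log2 level of the 14 endothelial markers in its own library. On this scale Cldn5, Ocln, Tjp1, Slc2a1, Mfsd2a, Abcb1a and Cav1 differed between groups by -0.28 to 0.24, all with overlapping libraries (-0.49 to 0.026 with the median of the markers as reference), and Slc16a1 and Plvap did not overlap.

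Slc16a1 was at -2.43, -1.12 and -1.42 relative to the markers in control and at -2.94, -2.77 and -2.60 in Bmal1;CKO. The Bmal1;CKO libraries were close together, and control library 1 lay nearest to them. The log2 difference was -1.12 (exact permutation p = 0.1). Over all genes tested, 0.508% did not overlap in this direction.

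Plvap was at 1.96, 1.64 and 1.61 relative to the markers in control and at 3.22, 2.58 and 2.44 in Bmal1;CKO. Its control libraries lay close together here, whereas their normalized counts differed more than 2-fold. The log2 difference was 1.01 (exact permutation p = 0.1). On this scale 7.69% of all genes tested were higher in Bmal1;CKO without overlap, where 14 of 14 reference markers were lower. Plvap and Slc16a1 did not overlap with each library left out in turn, with the median of the list as reference, and with Cdh5 and Pecam1 as reference. The 8 markers of the retinal pigment epithelium, which lies beside the fenestrated vessels of the choroid, summed to 433, 3119 and 1383 in control libraries 1 to 3. In Bmal1;CKO libraries 4 to 6 they summed to 2440, 1344 and 2384. The sum was lowest in control library 1, where Plvap was at 38889, and highest in control library 2, where Plvap was at 18527. Within Bmal1;CKO both were lowest in library 5. Of the 7 markers tested, 6 had a higher mean log2 level in Bmal1;CKO, as did Plvap, with a median log2 fold change of 1.56 and 0 at an unadjusted p under 0.05. Rpe65, Lrat, Rdh5 and Mlana were at 0 in at least 1 library, and the part of such tissue in the level of Plvap was not tested.

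The ratio of Plvap to Cldn5 needs no reference list. It was 0.193, 0.168 and 0.189 in control and 0.410, 0.295 and 0.328 in Bmal1;CKO. The controls were close together, and every Bmal1;CKO library was above them. On the log2 scale the ratio was -2.45 ± 0.11 in control and -1.55 ± 0.24 in Bmal1;CKO (SD, n = 3 each), a difference of 0.90 (exact permutation p = 0.1). Leaving out a library gave differences of 0.76 to 1.00. Ratios to Cldn5 that were higher in Bmal1;CKO without overlap were found for 6.12% of 20458 other genes.

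Of the 36 ratios between 2 of the 9 genes, 7 did not overlap between the groups, against 11.4% of all ratios between 2 of the genes tested. Of these 7, 5 held Plvap (with Cldn5, Tjp1, Slc16a1, Mfsd2a and Abcb1a) and 3 held Slc16a1 (with Slc2a1, Cav1 and Plvap). None of the 21 ratios without Plvap and Slc16a1 was free of overlap. The widest gap between the groups, 0.96 on the log2 scale, was that of Slc2a1 to Slc16a1, the glucose and the lactate carrier, whose ratio was higher in Bmal1;CKO by 1.36.

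**Figure D3:**
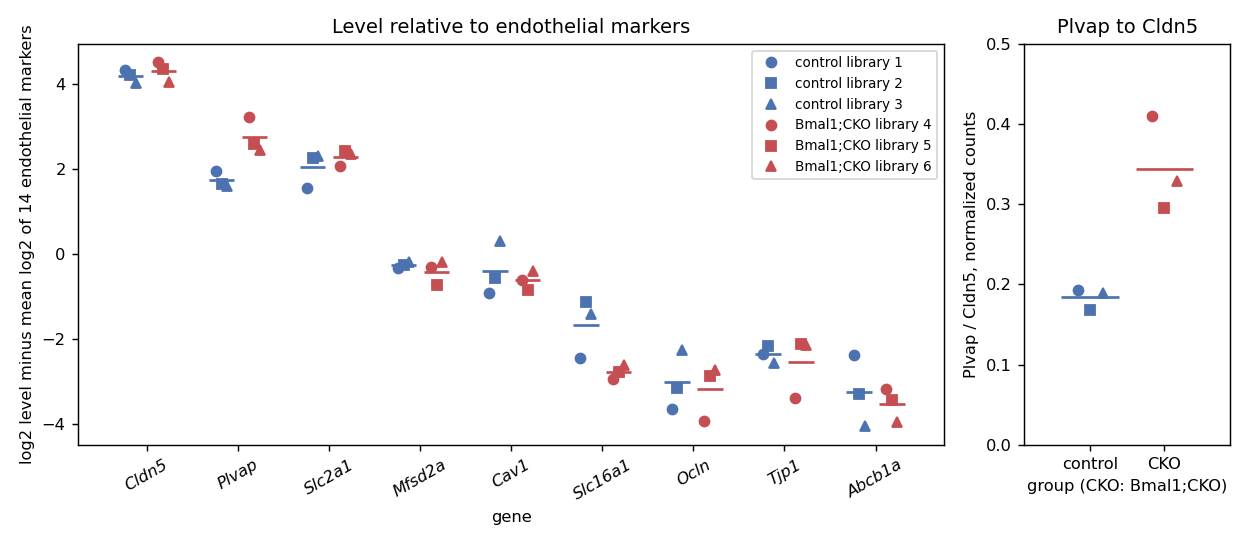
Left, log2 level of each barrier gene minus the mean log2 level of the 14 endothelial markers in the same library. Right, the ratio of Plvap to Cldn5 normalized counts, 0.168 to 0.193 in control and 0.295 to 0.410 in Bmal1;CKO. Points are libraries and bars are group means. Plvap and Slc16a1 show no overlap between the groups on the left.

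The rest of the barrier programme was followed in 6 lists of 83 genes, of which 81 passed the filter of 10 reads in 3 libraries. The Bmal1;CKO mean was above control for 26 of the 81 and below it for 55, and the median change over the 81 was -0.14 on the log2 scale. At an unadjusted p under 0.05 there were 6, all lower, or 7.41% of the 81, and 0 had an adjusted p under 0.05. Of these 6, 5 were among the 21 uptake transporters and 1 among the 15 regulators, and the lists of tight junction, adherens junction, efflux and caveola genes had 0. Of the 81, 4 were lower without overlap (Tfrc, Slc39a8, Slc2a3 and Abcc1) and 1 higher (F11r). Over all genes tested 4.54% were lower without overlap and 11.2% did not overlap in either direction, so these counts do not stand out from all genes.

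The 5 uptake transporters were 23.8% of their list, against 1.75% of all genes lower at this threshold. Of the 14 endothelial markers, all lower on average, 1 was at this threshold. The list was chosen with earlier results of these data known, so its share is a description and not a test. The name of this list is a label, and the direction in which each product carries its substrate was not measured. The median of the list was -0.62. Tfrc, the transferrin receptor that brings in iron, was at 6100, 2738 and 1533 in control and at 596, 577 and 1161 in Bmal1;CKO. Its groups did not overlap, and its log2 fold change was -2.00 (SE 0.55, p 0.00743, adjusted p 0.883). Slc39a8, a zinc and manganese carrier, was at 5811, 3807 and 4058 in control and at 1401, 947 and 3751 in Bmal1;CKO (log2 fold change -1.39, p 0.0263). Library 6 lay just under the lowest control, and libraries 4 and 5 far below.

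Slc39a10, a zinc carrier, was at 6642, 3665 and 2290 in control and at 1129, 1366 and 2510 in Bmal1;CKO (log2 fold change -1.28, p 0.0280). Slc22a8, the organic anion carrier OAT3, was at 1122, 509 and 1185 in control and at 221, 107 and 651 in Bmal1;CKO (log2 fold change -1.81, p 0.0417). Slc2a3, the glucose carrier GLUT3, which neurons and myeloid cells also use, was at 397, 866 and 664 in control and at 274, 245 and 260 in Bmal1;CKO (log2 fold change -1.23, p 0.0416). Slc39a10 and Slc22a8 overlapped between the groups and Slc2a3 did not. The uptake transporters of highest level per kb had small differences: Slc3a2 was at 0.08, Slc7a5, its partner in large amino acid transport, at -0.58, and Slco2b1 at 0.10 (p 0.344 to 0.834).

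The count of 6 changed with the libraries used. It was 1, Tfrc, without library 4 and also without library 5, 11 without library 6 and 12 without control library 1. The share of all genes at this threshold in either direction moved too, from 4.92% with all libraries to 2.31%, 2.17%, 3.35% and 8.65% in these fits. Tfrc was at an unadjusted p under 0.05 with each library left out and with edgeR, DESeq2 and limma-voom. With edgeR, Slc39a8 and Slc22a8 were not.

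**Figure D4:**
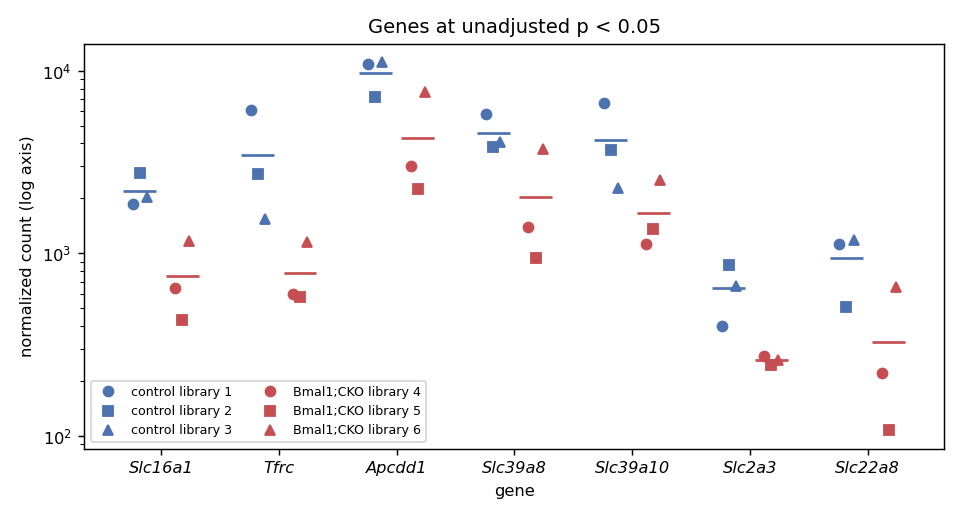
Normalized counts (log axis) in each library for Slc16a1 and the 6 genes of the wider lists at an unadjusted p under 0.05, with a bar for each group mean. Slc16a1, Tfrc, Slc39a8 and Slc2a3 show no overlap between the groups, and library 6 is the highest of the Bmal1;CKO points in all but Slc2a3.

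Among the regulators, Apcdd1, a membrane inhibitor and target of Wnt signalling, was at 10910, 7234 and 11128 in control and at 3006, 2264 and 7613 in Bmal1;CKO. Library 6 lay just above control library 2, so the groups overlapped. Its log2 fold change was -1.36 (p 0.0192, adjusted p 0.883), and p was over 0.05 without control library 3, without library 4 and without library 5. The regulators of highest level per kb were the transcription factor genes Sox17 and Foxf2 and the receptor gene S1pr1, at -0.08, -0.08 and -0.04 (p 0.858 to 0.907).

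In the tight junction list, with a median of -0.03, the junctional adhesion gene F11r was at 18706, 16609 and 21580 in control and at 24344, 23521 and 23027 in Bmal1;CKO. Its groups did not overlap, with a log2 fold change of 0.33 (p 0.186). Esam and Jam2 were at -0.30 and -0.26 and overlapped. In the adherens junction list, with a median of -0.40, Ctnnb1, which encodes beta-catenin, was at -0.12, Nectin2 at 0.08 and Pecam1 at -0.56. In the efflux list, with a median of -0.46, the pump gene Abcg2 was at -0.48, Abcc5 at -0.09 and Abca1, a cholesterol exporter, at 0.34. In the caveola list, with a median of -0.14, the coat gene Cavin3 was at -0.24 and the membrane remodelling genes Ehd4 and Dnm2 at 0.28 and 0.36.

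**Figure D5:**
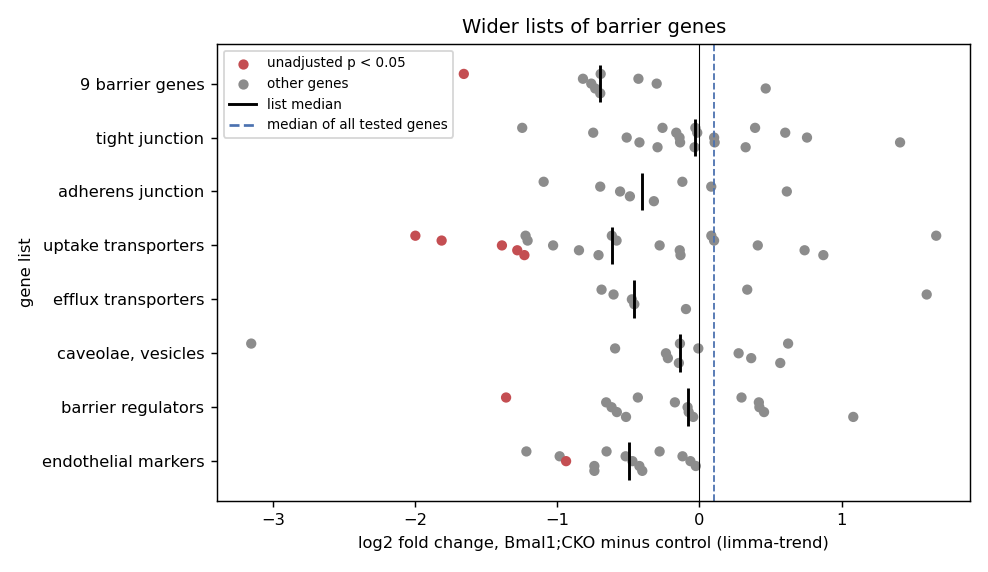
Log2 fold change, Bmal1;CKO minus control, of each tested gene in the barrier lists and the endothelial marker list (points), with the list median (bar) and the median of all genes tested (dashed line, 0.11). Red points are genes at an unadjusted p under 0.05. Of 21 uptake transporters 5 are red, all below 0, and the endothelial markers, median -0.50, all lie below 0.

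Set against the endothelial markers, 4 uptake transporters were lower without overlap (Tfrc, Slc39a8, Slc16a4 and Slc7a1) and 2 higher (Lrp1 and Insr), with differences of -1.46, -0.85, -0.68, -0.17, 1.41 and 0.95. Over all genes 0.508% were lower and 7.69% higher without overlap on this scale, so the 2 of 21 higher are near the share of all genes. The 4 of 21 lower come from a list chosen with earlier results of these data known. For Slc7a1 the lowest control was at 0.505 and the highest Bmal1;CKO library at 0.496. For Slc16a4 these were at -2.966 and -2.994, so both genes were only just free of overlap. Apcdd1 was lower by -0.82 on the log2 scale, and the Norrin receptor gene Fzd4, the junction gene Jup and the tricellular junction gene Lsr were higher by 0.96, 1.16 and 0.41. Slc16a4, Slc7a1, Lrp1, Insr, Fzd4, Jup and Lsr were singled out after their values were seen.

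The genes whose pattern over the 6 libraries was nearest to that of each barrier gene were found among 15601 genes with a mean of at least 100 normalized counts. The measure was the root mean square difference of centred log2 levels. For Cldn5 these were Vav3 (0.10), Atf6 (0.10), AU021092 (0.12), Atl3 (0.13) and the endothelial sialomucin gene Emcn (0.14), where the median over all genes was 0.71. The nearest gene was Sec24d for Ocln (0.17), Ptchd1 for Tjp1 (0.10), Nacc1 for Slc2a1 (0.11), Hecw2 for Slc16a1 (0.24), Tdrp for Mfsd2a (0.17), Lbp for Abcb1a (0.18), Sparcl1 for Cav1 (0.12) and Card6 for Plvap (0.11). Slc16a1 had the most distant nearest gene of the 9. With 6 libraries and so many genes, near patterns are to be found for any gene, and these distances are a description. Among the 9 genes themselves, Cldn5 and Mfsd2a were closest (0.31) and Slc16a1 and Plvap farthest apart (1.22).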

How the data were processed

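RNA was measured in sorted VECs of 3 control and 3 Bmal1;CKO animals. The authors used FastQC and Trimmomatic on the reads, Bowtie for alignment to mm10 (GRCm38) and featureCounts for counting. The deposited values are a signal: the count per gene divided by the library's DESeq2 size factor. The deposited table also holds the authors' own comparison (fold changes and p-values), which was not used. Dividing each column by its smallest step gave whole reads for 100% of values (within 0.05 of a whole read). Genes that reached 10 reads in 3 or more libraries were tested for genotype alone with limma-trend (limma 3.58.1, R 4.3.3) on log2(normalized count + 1), with Benjamini-Hochberg adjustment over 20459 genes. This scale understates the change of low genes. Count tests on the recovered reads, with edgeR 4.0.16 (0 genes at an adjusted p under 0.05) and DESeq2 1.42.0 (67 genes), and limma-voom were alternatives, as were pseudocounts of 0.5 and 10, other filters, other references and each library left out in turn. Ratios and levels of 1 gene were compared with exact permutation tests, two-sided, over the 10 splits that pair each set of 3 libraries with its complement.

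Exon lengths and coordinates came from GENCODE M21 (GRCm38, 55227 of 55487 identifiers matched). The genes named are the 9 barrier genes, the 3 genes of highest level per kb and all at an unadjusted p under 0.05 in each wider list, Abcb1b, Cav2, Arntl and the genes of nearest pattern, with others named where stated. The 9 genes and the lists were chosen with earlier results of these data known. Figures were drawn with matplotlib 3.10.9, and tables and exact tests were made with pandas 2.3.3, in Python 3.11.15.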

Additional observations from a re-analysis of the deposited data

How the results depend on the processing

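No paired analysis was possible because the columns are numbered 1 to 6 across the groups and could not be matched to single samples. In 14 alternatives no gene of the 9 changed direction, 0 reached an adjusted p under 0.05, and the median log2 fold change stayed below 0. With each library left out in turn, the count at an unadjusted p under 0.05 was 1 to 4 of the 9 and 1 to 12 in the wider lists, against 2.17% to 11.9% of all genes, and the count without overlap was 1 to 6 of the 9, against 16.9% to 30.7% of all genes. The median difference of the 9 genes from the endothelial markers, -0.16, ranged from -0.26 to 0.025 with a library left out and was -0.37 with the median of the list as reference. It turned above 0 without control library 3 and, at 0.0085, without Bmal1;CKO library 4. Relative to the markers, Cldn5 turned to -0.10 with the median of the list. Abcb1a turned to 0.16 without control library 1, Ocln to 0.23 and Cav1 to 0.13 without control library 3, Ocln to 0.21 and Tjp1 to 0.23 without Bmal1;CKO library 4, and Mfsd2a to 0.0069 without library 5; the cause was not tested. With a library left out, these differences reached down to -0.47 for Ocln, -0.41 for Tjp1, -0.69 for Abcb1a and -0.48 for Cav1. With library 4 left out Tjp1 and Slc2a1, and with library 6 left out Cldn5, also did not overlap. The count of all genes at an adjusted p under 0.05 was 0 in limma-trend, edgeR and limma-voom and 67 in DESeq2, and in limma-trend it was 1 under either other filter and 6 without control library 1. The median of all genes was 0.11 in limma-trend and -0.03 in edgeR with TMM scaling, and that of the 9 genes was -0.70 and -0.55. For all genes, edgeR with DESeq2 size factors also gave -0.03, and limma-voom gave 0.11. In limma-trend with at least 10 reads in every library, the median of all genes was -0.0057. Single genes did not move alike from limma-trend to edgeR with TMM scaling: Ocln went from -0.70 to -0.52 and Abcb1a from -0.82 to -1.15. Intervals rest on 3 libraries a group, and an interval that includes 0 does not show that a gene was unchanged.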
